A study of Mus musculus with 54 samples.

Results

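The variable genes of the T cell receptor α and β chains, Trav and Trbv, were examined in naive mouse CD4+ T cells before and after stimulation. Members were all genes whose symbol starts with Trav or Trbv and that had 50 or more reads summed over the libraries of an experiment. In the CD5/CD6 experiment, 97 genes met this rule, 72 of 128 annotated Trav genes and 25 of 35 annotated Trbv genes, out of 55385 genes counted. In the LAT experiment 90 genes met it, 67 Trav and 23 Trbv. The members carried 169307 Trav and 667599 Trbv reads in the CD5/CD6 experiment and 61608 Trav and 354482 Trbv reads in the LAT experiment, and the genes under the minimum carried 149 and 47 reads in the former and 189 and 66 in the latter.

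A T cell assembles its receptor genes by joining 1 variable gene to a joining gene (with a diversity gene between them in the β chain), and the joined exon is spliced to a constant region, Trac for the α chain and Trbc1 or Trbc2 for the β chain. Each rearranged gene is transcribed from the promoter of its own variable gene, under an enhancer of the locus. The usage of variable genes in the RNA of many T cells is therefore a coarse picture of their repertoire, weighted by the RNA that each cell makes. CD5 and CD6 are related surface receptors that modulate signals from the T cell receptor, and LAT is the membrane adaptor on which signaling complexes assemble after the receptor is engaged.

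The CD5/CD6 experiment held WT, Cd5-/-, Cd6-/-, and Cd5-/-Cd6-/- cells from C57BL/6 mice, enriched magnetically from lymph nodes and spleens. The LAT experiment held WT cells that kept human DTR (hDTR+) and Lat-/- cells that had lost it (hDTR-), both sorted on a FACS Aria from mice of the Lat fl-dtr maT-Cre line, so the 2 kinds of cells came from the same kind of mouse. Cells were taken untreated (0 h) or after 4 h or 20 h with anti-CD3 (3 µg/ml, bound to the plate) and soluble anti-CD28 (1 µg/ml), with 3 replicates per condition, called biological by the submitters, in 36 and 18 libraries. Cd6-/- and Cd5-/-Cd6-/- mice were made with CRISPR/Cas9, the latter by deletion of the neighboring Cd5 and Cd6 genes, whereas Cd5-/- mice carried an older allele that had been backcrossed to C57BL/6.

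Depth was 20554354 to 45222554 assigned reads per library in the CD5/CD6 experiment and 17784644 to 28501095 in the LAT experiment. Cd4 averaged 571 to 1590 CPM (counts scaled to a common library total with TMM factors) over all groups and Cd8a at most 10.7 CPM. Lat RNA averaged 249, 309, and 98.3 CPM in WT cells at 0, 4, and 20 h and 15.3, 7.92, and 12.9 CPM in Lat-/- cells. In the CD5/CD6 experiment 2 libraries went against their labels in the targeted genes. Cd5 RNA was 129, 719, and 105 CPM in 0 h libraries 1, 2, and 3 labelled Cd5-/-, and 724, 172, and 719 CPM in those labelled Cd6-/-. Cd6 RNA was 1298, 329, and 1084 CPM in the former and 349, 1203, and 251 CPM in the latter. Library 2 of each set therefore looked like the other genotype. Most tests and means at 0 h that rest on them are given with and without both, or with each library's value. In the magnetically enriched WT cells, the summed RNA of 4 B cell markers ran from 81.8 to 480.5 CPM at 0 h and from 1.73 to 3.16 CPM at 20 h, and that of 3 myeloid markers from 86.5 to 223.6 CPM and from 0.152 to 0.536 CPM. In the sorted 0 h WT cells of the LAT experiment the same sums reached at most 4.73 and 3.10 CPM. The purity of the cells thus differed between experiments and, in the CD5/CD6 experiment, with time, and its part in the results was not tested.

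The sequences of β chain genes come first, for the most used genes and for 3 others, Trbv17, Trbv19, and Trbv29, whose shares changed with time. The last 60 bases of the annotated transcript are shown (GENCODE, GRCm38), with the letters TGTGC, which cover the codon of the conserved cysteine at the start of the complementarity-determining region 3, in capitals where they occur on the printed strand.
Trbv13-2, chr6:41121396-41121832, plus strand: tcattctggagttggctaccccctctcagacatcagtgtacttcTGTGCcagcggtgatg
Trbv16, chr6:41151740-41152230, plus strand: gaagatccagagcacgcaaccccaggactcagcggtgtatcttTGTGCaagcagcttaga
Trbv3, chr6:41048290-41048828, plus strand: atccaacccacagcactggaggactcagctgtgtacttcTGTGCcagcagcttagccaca
Trbv1, chr6:40891229-40891885, plus strand: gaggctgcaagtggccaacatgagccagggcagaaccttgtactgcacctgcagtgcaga
Trbv15, chr6:41141188-41141658, plus strand: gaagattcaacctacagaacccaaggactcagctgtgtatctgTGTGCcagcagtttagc
Trbv17, chr6:41163062-41163556, plus strand: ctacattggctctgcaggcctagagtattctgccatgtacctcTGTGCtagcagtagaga
Trbv19, chr6:41178375-41179048, plus strand: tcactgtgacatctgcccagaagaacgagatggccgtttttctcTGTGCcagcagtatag
Trbv29, chr6:41271394-41271881, plus strand: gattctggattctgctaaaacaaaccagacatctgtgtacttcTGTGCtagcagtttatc
The letters occurred in this stretch of 79 of the 97 members (81.4%) and of 129 of all 163 annotated Trav and Trbv genes (79.1%). Trbv1 was the 1 gene of those printed without them. The β chain genes printed are distinct from each other, so that a 50-base read can tell them apart.

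The α locus holds duplicated blocks of genes, whose copies carry d or n after the family number, and many of its genes are near copies of each other. The ends of the 5 members of the Trav14 family, the α chain family with the most reads, differ at 4 positions, marked by capitals.
Trav14-1, chr14:53554022-53554558, plus strand: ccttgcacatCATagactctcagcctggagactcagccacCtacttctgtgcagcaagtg
Trav14-2, chr14:53640701-53641225, plus strand: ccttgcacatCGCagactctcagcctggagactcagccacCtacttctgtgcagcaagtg
Trav14-3, chr14:53763173-53763694, plus strand: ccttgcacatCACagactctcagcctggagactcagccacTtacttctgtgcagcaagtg
Trav14d-3-dv8, chr14:53078452-53079045, plus strand: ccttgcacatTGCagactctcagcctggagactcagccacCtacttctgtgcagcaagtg
Trav14n-3, chr14:53370077-53370575, plus strand: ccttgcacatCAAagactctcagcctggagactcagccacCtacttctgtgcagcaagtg
How reads that match several genes were counted is not given in the sources used here. Of the 128 Trav genes, 42 had no 50-base window that was theirs alone among all annotated transcripts, and 38 of these had 0 reads in the CD5/CD6 experiment, the highest of the others having 4. Of the Trav members, the median had 57.7% unique windows and 9 of 72 had 100%, against a median of 100% and 19 of 25 for the Trbv members. Values of single Trav genes with near copies are therefore uncertain, more so than those of Trbv genes. Trav family shares, sums over groups, and effective numbers cover only the genes that received reads. Trav14d-1, Trav14d-2, Trav14n-1, and Trav14n-2, for example, have no unique window and are not among the members.

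Trav11, the α chain gene of invariant natural killer T cells, shows this most plainly. Trav11 and its copy Trav11d are identical over the 342 bases compared, which is the shortest of the 3 transcripts, and both had 0 reads in each experiment, whereas Trav11n differs from them at 8 bases and had 173 and 101 reads. Bases 91 to 170 are shown, with the 2 differences in this stretch in capitals.
Trav11, chr14:53519303-53519859, plus strand: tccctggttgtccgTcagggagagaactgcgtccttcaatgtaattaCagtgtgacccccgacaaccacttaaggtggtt
Trav11d, chr14:52824357-52824912, plus strand: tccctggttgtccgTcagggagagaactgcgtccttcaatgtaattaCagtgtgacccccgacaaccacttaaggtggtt
Trav11n, chr14:53135122-53135678, plus strand: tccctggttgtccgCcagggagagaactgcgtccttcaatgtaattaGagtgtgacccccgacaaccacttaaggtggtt
No level of the invariant chain can be read from these counts. Trav1, the α chain gene of mucosal-associated invariant T cells, has 100% unique windows and took 0.967% of the Trav reads of untreated WT cells in the CD5/CD6 table.

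At the edge of the rule in the CD5/CD6 experiment lay Trbv12-3, Trav13-3, Trav9d-4, Trbv5, and Trav4d-2, with 50, 53, 62, 68, and 97 reads inside it, and Trav10d, Trav15d-3, Trav6n-5, Trav15-3, and Trbv10, with 43, 26, 23, 22, and 21 reads outside it. In the LAT experiment Trav13d-1, Trav20, Trav9n-1, Trbv22, and Trav18 were just inside with 67, 70, 91, 93, and 93 reads, and Trav23, Trav12-4, Trav10d, Trav6n-5, and Trav4d-2 just outside with 35, 35, 30, 28, and 26. Members annotated as pseudogenes numbered 7 Trav and 3 Trbv in the CD5/CD6 experiment and 4 and 2 in the LAT experiment.

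In untreated WT cells the β chain repertoire was led by a few genes and the α chain repertoire was spread over many. The share of a gene is its percentage of all Trav or all Trbv member reads of a library. Trbv13-2 (Vβ8.2) had the highest share in the CD5/CD6 experiment, with 14.0, 14.4, and 13.6% in the 3 libraries. Trbv16 (Vβ11) followed with 9.81% ± 0.436 (SD, n = 3), Trbv3 with 9.64% ± 0.128, Trbv1 (Vβ2) with 9.38% ± 0.737, and Trbv15 (Vβ12) with 8.78% ± 0.304. The libraries of Trbv16, Trbv3, and Trbv1 overlapped, so the order of these 3 genes was within the spread. Trbv31, the inverted gene that lies beyond the constant genes at chr6:41557691-41558452 on the minus strand, took 7.24% ± 0.448. Per base of exon the leading genes were Trbv13-2, Trbv16, and Trbv15, with 16.2, 9.71, and 9.35% of the length-scaled total.

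Of the α chain genes, Trav14-1 had 6.32% ± 0.961, Trav14-2 5.43%, Trav14d-3-dv8 4.72% ± 0.415, Trav14n-3 4.13%, and Trav13-1 3.68%, and the libraries of neighbors in this order overlapped. Per base of exon Trav14-1, Trav14-2, and Trav14n-3 led with 6.09, 5.39, and 4.39%. The members of the Trav14 family together took 22.7% of Trav reads and the 3 members of the Trbv13 family 24.2% of Trbv reads. The 8 members that the δ chain can also use, named with dv, took 15.7%, and those above 1% were Trav14d-3-dv8, Trav4-4-dv10 (3.17%), Trav21-dv12 (2.46% ± 0.249), Trav15-1-dv6-1 (1.84%), and Trav6-7-dv9 (1.78%). The evenness of the shares, given as the number of equally used genes with the same Shannon entropy, was 48.1 for Trav and 15.1 for Trbv.

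**Figure D1:**
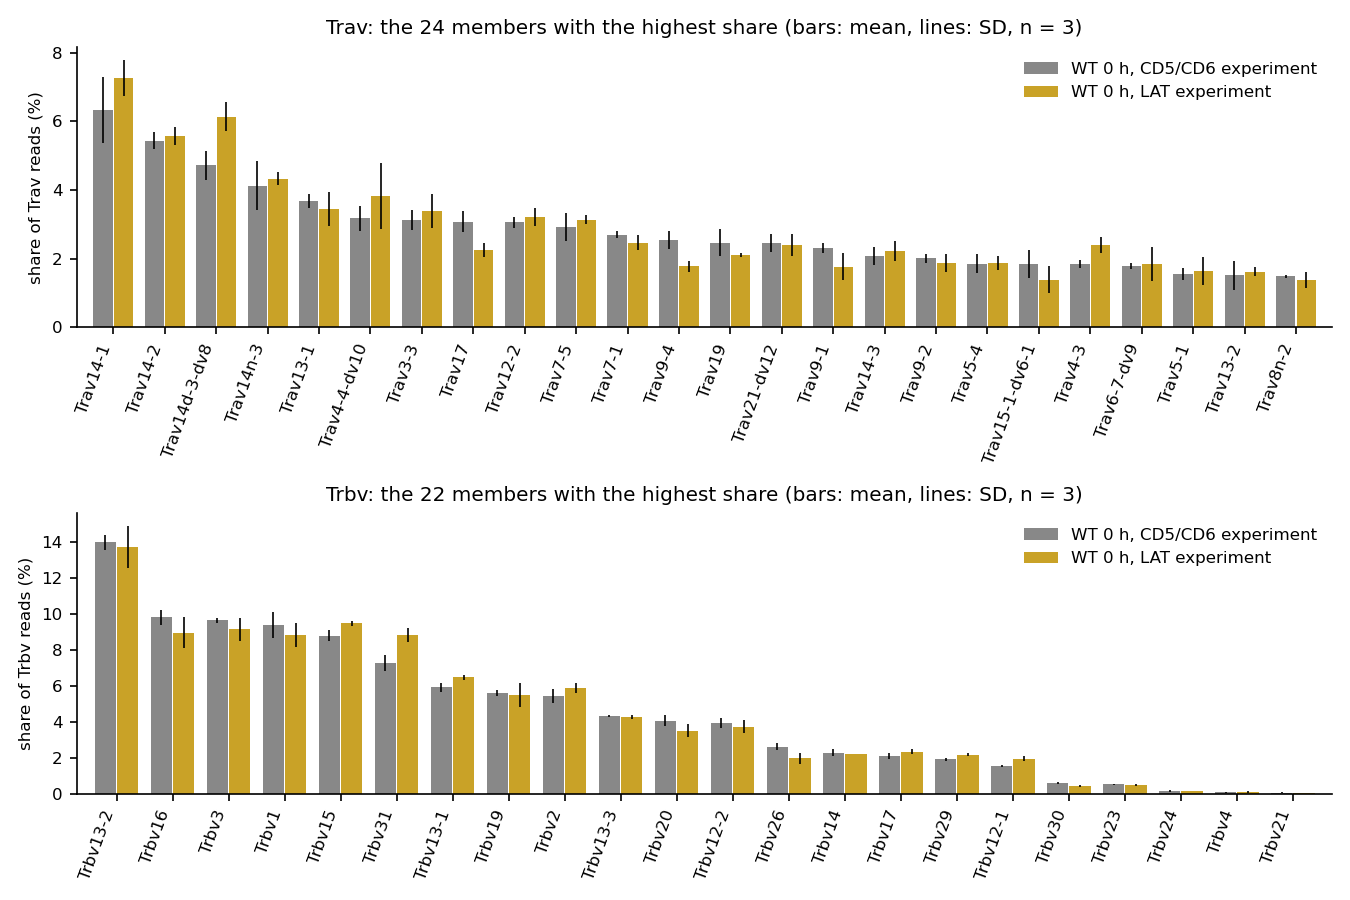
Read share in percent of the Trav total (24 most used members) and of the Trbv total (22 most used members) in untreated WT cells of the CD5/CD6 and LAT experiments. Bars are means of 3 libraries and error bars SD. Trbv13-2 stands highest among Trbv genes at 14.0% and 13.7%, and no Trav gene passes 7.26%.

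The untreated WT cells of the LAT experiment, purified in a different way, were led by Trbv13-2 and Trav14-1 as well. Trbv13-2 took 13.7%, Trbv15 9.48%, Trbv3 9.14%, Trbv16 8.95%, and Trbv1 and Trbv31 8.82% each. Trav14-1 took 7.26%, Trav14d-3-dv8 6.13%, Trav14-2 5.57%, Trav14n-3 4.33%, and Trav13-1 3.44%. The effective numbers were 45.9 for Trav and 15.0 for Trbv. The tables were not fitted together, and these values are set side by side with no test.

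Stimulation moved the RNA of the 2 chains in different directions at 4 h and in the same direction at 20 h. In the WT libraries of the CD5/CD6 table, the summed Trav level was 158, 143, and 163 CPM at 0 h, 214, 200, and 212 CPM at 4 h, and 60.2, 63.3, and 68.0 CPM at 20 h. The summed Trbv level was 848, 769, and 897 CPM at 0 h, 534, 424, and 551 CPM at 4 h, and 355, 390, and 496 CPM at 20 h. The Trav libraries at 4 h thus lay above all 0 h libraries and the Trbv libraries below them, and at 20 h both lay below. Changes were 0.44 and −1.27 on the log2 scale for Trav and −0.74 and −1.03 for Trbv. In WT cells of the LAT experiment they were 0.62 and −1.28 for Trav and −0.45 and −1.16 for Trbv, again without overlap between libraries. The 2-sided exact permutation p was 0.1 for each of these 8 changes, the smallest that 3 against 3 libraries can give, and over the 18 tests of summed levels in both experiments the lowest adjusted p was 0.138 (permutation, Benjamini-Hochberg). In bulk RNA, fewer cells that use a gene and less of its RNA per cell cannot be told apart. CPM values are also relative to the other RNA of a library, so they do not give amounts per cell. A change in the total RNA of a cell was not measured.

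**Figure D2:**
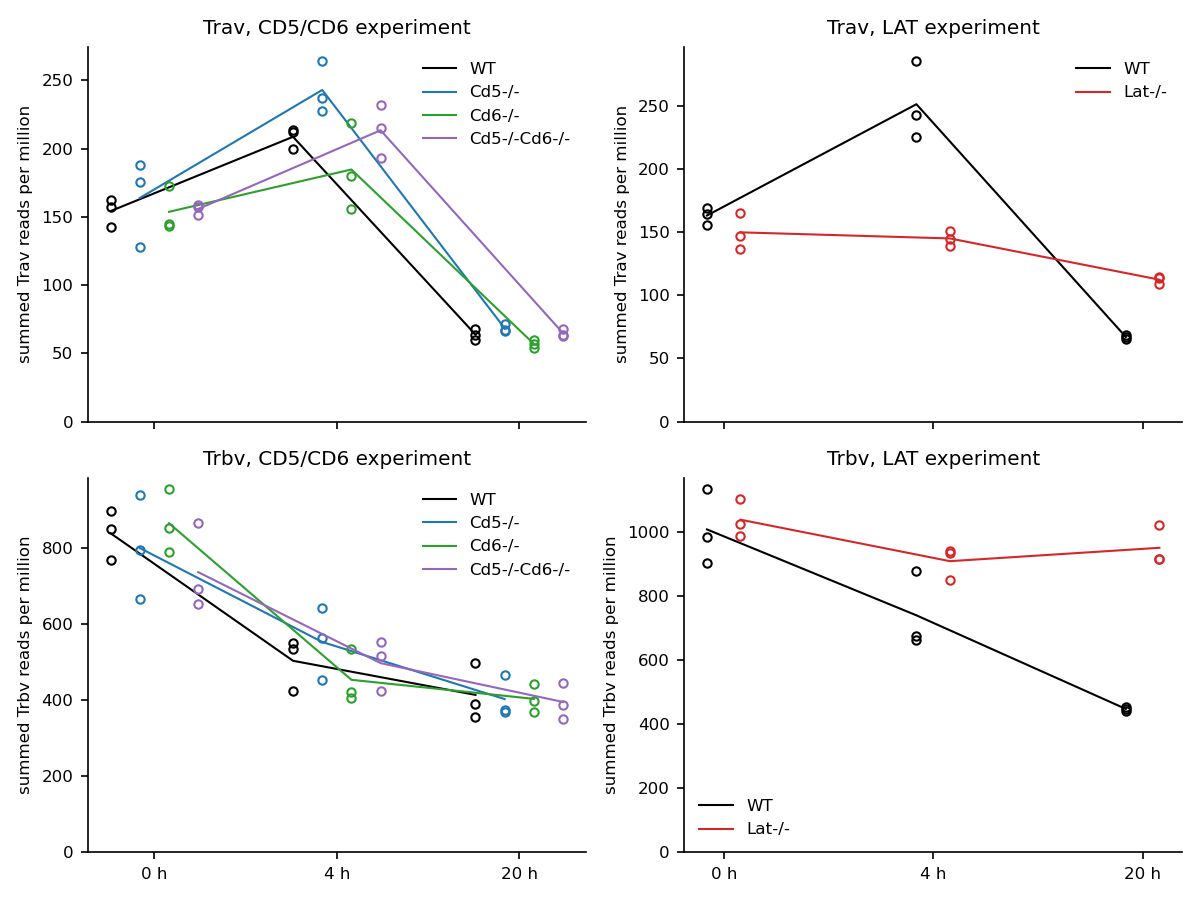
Summed CPM of Trav members and of Trbv members by time and genotype in the CD5/CD6 and LAT experiments. Points are libraries, lines join means, and times are evenly spaced categories. WT Trav means rise from 154 to 209 CPM and from 163 to 251 CPM at 4 h and fall to 63.8 and 67.0 CPM at 20 h, whereas Lat-/- Trbv means stay between 909 and 1038 CPM.

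Gene by gene, the direction was shared by most members. Genes were called with edgeR's quasi-likelihood test at a fold change over 2 and an adjusted p under 0.05, with Benjamini-Hochberg adjustment over all genes tested. At 4 h in the CD5/CD6 libraries 63 of 72 Trav members had a positive change and 0 of 25 Trbv members did, with medians of 0.48 and −0.77 against 0 for all genes tested. Of these, 3 Trav members rose and 6 Trbv members fell past the threshold, when 8.24% of all genes rose and 11.1% fell. Trbv17 (Vβ9) fell by 1.19 (SE 0.20, adjusted p = 7.6e-07, edgeR), Trbv12-2 by 1.18 (SE 0.19, adjusted p = 4.05e-07), and Trbv14 by 1.02 (SE 0.21, adjusted p = 6.31e-05) on the log2 scale. Trav3-3 rose by 1.05 (SE 0.24, adjusted p = 0.000191), a call lost with library totals in place of TMM factors. With library totals alone 1 member rose and 13 fell, and the median over all members moved from 0.25 to −0.01. Without replicate 1, 2, or 3 of every group 6, 8, and 12 members were called, with Trbv17 and Trbv12-2 among them each time.

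At 20 h 45 Trav and 12 Trbv members fell in the CD5/CD6 experiment and 0 rose, when 17.3% of all genes fell. Only 4 of 72 Trav members and 0 of 25 Trbv members had a positive change, with medians of −1.26 and −1.03. Trav15-1-dv6-1 fell by 2.64 (SE 0.37, adjusted p = 4.14e-09, edgeR), Trav19 by 2.54 (SE 0.31, adjusted p = 5.19e-11), and Trav5-4 by 1.98 (SE 0.32, adjusted p = 1.3e-07) on the log2 scale. When replicate 1, 2, or 3 was left out of every group, 43, 52, and 56 members were called.

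WT cells of the LAT experiment gave the same directions. At 4 h 11 Trav members rose and 2 Trbv members fell, when 8.05% of all genes rose and 9.29% fell, and the medians were 0.63 and −0.42. Trav7-4 rose by 1.25 (SE 0.32, adjusted p = 0.000566, edgeR), Trav4-4-dv10 by 1.15 (SE 0.25, adjusted p = 1.91e-05), and Trav6n-6 by 1.12 (SE 0.34, adjusted p = 0.00522). Trbv17 fell by 1.00 (SE 0.19, adjusted p = 1.61e-06), at the edge of the fold threshold, and lost its call with DESeq2, with the RLE factors, and with the filter of edgeR on low counts. With library totals alone 4 members rose and 3 fell, and without replicate 1, 2, or 3 of every group 9, 8, and 14 members were called. At 20 h 39 Trav and 14 Trbv members fell, when 12.7% of all genes fell, and 0 rose. Trav14-1 fell by 2.10 (SE 0.25, adjusted p = 4.01e-16), Trav19 by 1.94 (SE 0.35, adjusted p = 1.56e-07), and Trbv17 by 1.79 (SE 0.20, adjusted p = 3.39e-18) on the log2 scale. The 4 h and 20 h comparisons share the 0 h libraries.

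Constant and joining genes were compared in the same fits. In the WT libraries of the CD5/CD6 table, Trac averaged 1229, 2204, and 600 CPM at 0, 4, and 20 h. Trbc1 averaged 468, 431, and 347 CPM and Trbc2 974, 787, and 678 CPM. Neither Trbc1 nor Trbc2 passed the test at 4 h, with −0.12 (SE 0.17, adjusted p = 0.73, edgeR) and −0.31 (SE 0.18, adjusted p = 0.23). Trac fell by 1.03 (SE 0.14, adjusted p = 4e-09, edgeR) at 20 h, and its rise of 0.84 (SE 0.14, adjusted p = 1.1e-06) at 4 h was below the fold threshold, as was its rise of 0.72 (SE 0.15, adjusted p = 4.6e-06) in the LAT experiment. Of 60 Traj genes 6 rose at 4 h, a share near the 8.24% of all genes that rose, and 41 fell at 20 h, when 17.3% of all genes fell. In the LAT experiment 3 of 59 rose, beside 8.05% of all genes, and 25 fell, beside 12.7%. Of 14 Trbj genes 0 passed the threshold at 4 h in either experiment, and 5 and 8 fell at 20 h. Neither of the 2 Trbd genes passed it in any of these comparisons. Reads of Trbv members per read of Trbc1 and Trbc2 went from 0.59 to 0.41 and 0.41 in the CD5/CD6 experiment and from 0.55 to 0.47 and 0.43 in the LAT experiment.

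Among the other genes of the receptor, Cd247, the ζ chain, fell at 4 h by 1.10 (SE 0.17, adjusted p = 5e-08, edgeR) and at 20 h by 1.39 (SE 0.17, adjusted p = 3.8e-11) in the CD5/CD6 experiment. At 20 h Cd3e and Cd3g also fell there, by 1.14 (SE 0.15, adjusted p = 1.4e-09) and 1.40 (SE 0.18, adjusted p = 1.2e-10). Dntt, which encodes the polymerase that adds bases at the junctions of rearranging genes, averaged 13.6, 4.67, and 0.46 CPM in these cells and 32.4, 15.0, and 2.12 CPM in WT cells of the LAT experiment. The mean CPM of Rag1, Rag2, and Ptcra, genes of receptor assembly in the thymus, was at most 0.52 in any group.

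The makeup of the repertoire RNA also changed within each locus. Usage was tested in the same kind of fit, with the reads of each member set against the Trav or Trbv total of its library, so that a shift of the whole locus cancels, and calls are at an adjusted p under 0.05 with no fold threshold. The percentages of all genes called that are given beside these tests are for expression, since only the members were set against a locus total. Adjustment ran over all genes tested, so the unadjusted p that a call needs differed between comparisons. In Lat-/- against WT cells, Trbv13-1 was called at 20 h with an unadjusted p of 0.0154 (adjusted p = 0.0446, edgeR). At 0 h Trbv12-1 was not called with an unadjusted p of 0.0119 (adjusted p = 0.388, edgeR). Numbers of usage calls in different comparisons therefore do not rest on the same cutoff. In the CD5/CD6 libraries 7 members changed share in WT cells at 4 h, when 28.4% of all genes were called. Trbv29 (Vβ7) took 2.01, 1.90, and 1.81% at 0 h and 2.95, 3.25, and 3.34% at 4 h. All 4 h libraries lay above all 0 h libraries, and the change was 0.74 on the log2 scale (SE 0.17, adjusted p = 0.000304, edgeR). Trav8d-2 rose by 1.04 (SE 0.35, adjusted p = 0.0143) and Trav3-3 by 0.62 (SE 0.22, adjusted p = 0.0272). Trav15-1-dv6-1 fell by 1.15 (SE 0.32, adjusted p = 0.00296), Trav21-dv12 by 0.78 (SE 0.27, adjusted p = 0.0188), Trav14-1 by 0.62 (SE 0.21, adjusted p = 0.0176), and Trbv12-2 by 0.44 (SE 0.16, adjusted p = 0.032). Without replicate 1, 2, or 3 of every group 3, 2, and 8 members were called, and Trbv29 was the 1 member called in each of these fits.

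At 20 h 14 members changed share in the WT libraries of that table, when 37.7% of all genes were called. Trbv17 took 2.28, 2.08, and 1.97% at 0 h and 1.31, 1.25, and 0.982% at 20 h. Trbv16 took 9.40, 10.3, and 9.75% at 0 h and 6.40, 6.72, and 7.29% at 20 h, and Trbv15 8.54, 8.69, and 9.12% at 0 h and 6.52, 6.49, and 6.91% at 20 h. These neighbors on the chromosome fell without overlap between libraries, by 0.84 (SE 0.20, adjusted p = 0.000264, edgeR), 0.53 (SE 0.14, adjusted p = 0.00155), and 0.40 (SE 0.15, adjusted p = 0.0222) on the log2 scale. Their summed share was 20.7% at 0 h, 17.8% at 4 h, and 14.6% at 20 h. The first 3 genes of the locus, Trbv1, Trbv2, and Trbv3, took 24.5, 28.4, and 30.9%, and of these Trbv1 passed the test at 20 h with a rise of 0.41 (SE 0.14, adjusted p = 0.0133). Both sums were formed after the values were seen.

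Trbv19 (Vβ6) was higher at 20 h than at 0 h. Its share was 5.77, 5.53, and 5.50% at 0 h, 4.44, 4.84, and 4.75% at 4 h, and 7.46, 7.39, and 7.20% at 20 h. All libraries at 20 h were above and all at 4 h below those at 0 h, and the rise at 20 h was 0.39 (SE 0.15, adjusted p = 0.0377, edgeR). The difference at 4 h, −0.26 (SE 0.155, adjusted p = 0.247), did not pass the test. Of the Trav members, Trav15-1-dv6-1 fell by 1.38 (SE 0.36, adjusted p = 0.000923), Trav19 by 1.26 (SE 0.29, adjusted p = 0.000222), and Trav14-1 by 0.54 (SE 0.22, adjusted p = 0.0437), and Trav3-3 rose by 0.63 (SE 0.23, adjusted p = 0.0231) and Trav4-4-dv10 by 0.54 (SE 0.22, adjusted p = 0.0462). Trav19 took 2.93, 2.32, and 2.16% at 0 h and 1.08, 0.932, and 1.06% at 20 h. Trbv12-2 fell by 0.60 (SE 0.16, adjusted p = 0.00197) and Trbv13-3 by 0.37 (SE 0.15, adjusted p = 0.0493). The remaining 2 calls were of Trav20, with 11, 1, and 8 reads at 0 h and 0 in each library at 20 h (adjusted p = 0.0122, edgeR), and of Trbv22, with 8, 6, and 13 reads at 0 h and 0, 1, and 0 at 20 h (adjusted p = 0.0306). They are named here because the number of other calls was small. When replicate 1, 2, or 3 was left out of every group, 5, 4, and 14 members were called, and Trbv17 and Trav19 were called in each of these fits.

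**Figure D3:**
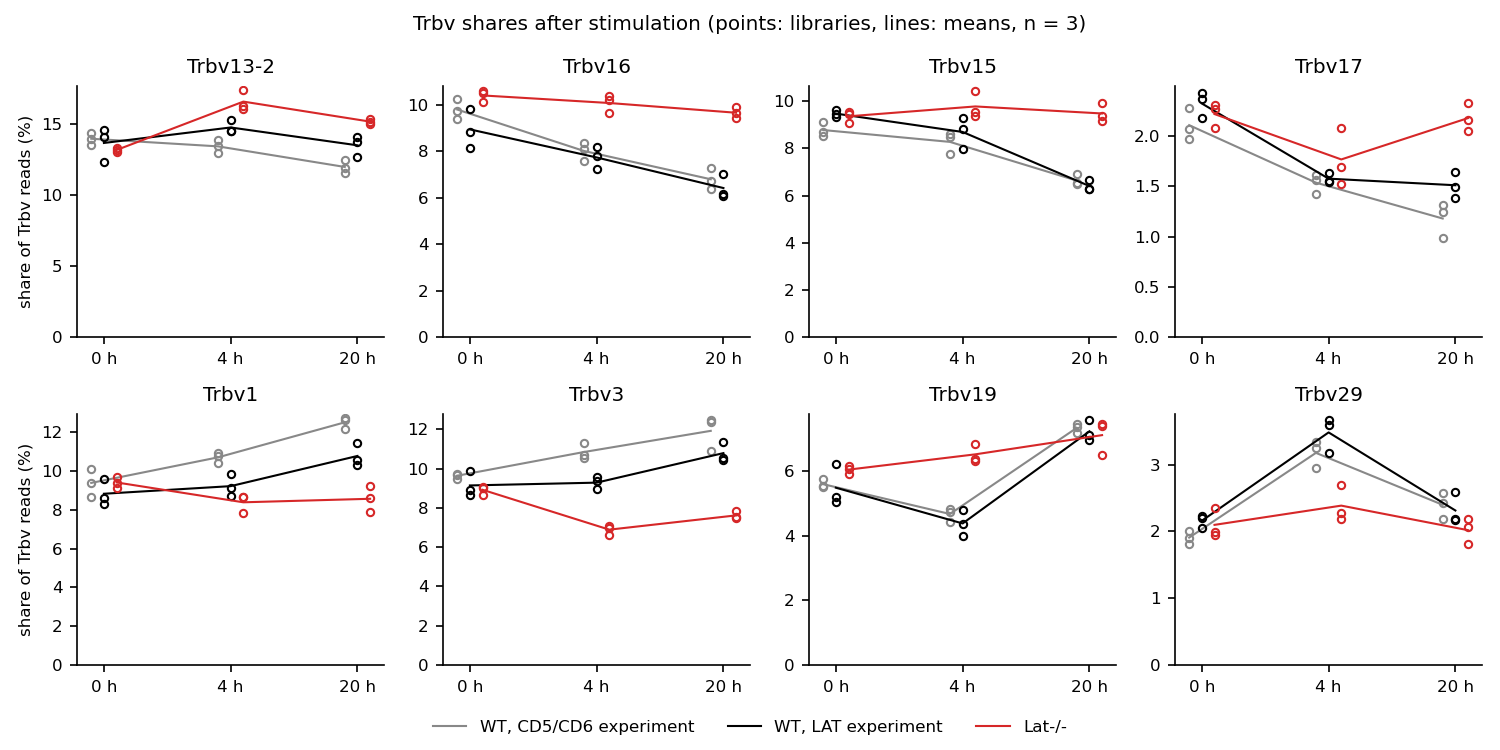
Share of 8 Trbv genes in the Trbv total (percent) by time in WT libraries of the CD5/CD6 table and in WT and Lat-/- cells of the LAT experiment. Points are libraries, lines join means of 3 libraries, and times are evenly spaced categories. In WT cells Trbv15 goes from 8.78% and 9.48% at 0 h to 6.64% and 6.41% at 20 h, whereas in Lat-/- cells it goes from 9.36% to 9.48%.

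In WT cells of the LAT experiment, whose B cell and myeloid marker sums were under 5 CPM at each time, 4 members changed share at 4 h and 5 at 20 h, when 28.9% and 34.5% of all genes were called. At 4 h Trbv29 rose from 2.20, 2.23, and 2.06% to 3.60, 3.67, and 3.18%, a change of 0.69 (SE 0.18, adjusted p = 0.000902, edgeR). Trav21-dv12 fell by 1.11 (SE 0.33, adjusted p = 0.00319), Trav14-1 by 0.85 (SE 0.23, adjusted p = 0.00111), and Trbv17 by 0.56 (SE 0.19, adjusted p = 0.0145). At 20 h Trbv15 fell from 9.47, 9.34, and 9.63% to 6.66, 6.27, and 6.29%, a change of −0.56 (SE 0.15, adjusted p = 0.00102). Trbv17 fell by 0.62 (SE 0.20, adjusted p = 0.00549), Trbv16 by 0.48 (SE 0.15, adjusted p = 0.00677), and Trav14-1 by 0.82 (SE 0.24, adjusted p = 0.00307), and Trbv19 rose by 0.40 (SE 0.16, adjusted p = 0.0355). The summed share of Trbv15, Trbv16, and Trbv17 was 20.8, 18.0, and 14.3% at 0, 4, and 20 h and that of Trbv1, Trbv2, and Trbv3 23.8, 24.9, and 28.9%. Without replicate 1, 2, or 3 of every group 2, 4, and 4 members were called at 4 h, with Trbv29 and Trav21-dv12 among them each time, and 1, 6, and 4 at 20 h, with Trbv15 among them each time.

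In the knockouts of the CD5/CD6 experiment the means are given with no test of a difference in response. The summed Trav level averaged 164, 243, and 68.4 CPM at 0, 4, and 20 h in Cd5-/- cells, 154, 185, and 57.0 CPM in Cd6-/- cells, and 156, 214, and 64.9 CPM in Cd5-/-Cd6-/- cells. The summed Trbv level averaged 799, 553, and 403 CPM, 864, 453, and 403 CPM, and 736, 497, and 395 CPM. Without library 2 the 0 h means were 182 and 144 CPM for Trav and 866 and 903 CPM for Trbv in the sets labelled Cd5-/- and Cd6-/-. Trbv15, Trbv16, and Trbv17 took 20.0, 16.6, and 13.8% in Cd5-/- cells at 0, 4, and 20 h, 19.5, 16.5, and 13.4% in Cd6-/- cells, and 20.6, 17.3, and 14.5% in Cd5-/-Cd6-/- cells. At 0 h without library 2 the share was 19.9% in the set labelled Cd5-/- and 19.8% in that labelled Cd6-/-. Trbv1, Trbv2, and Trbv3 took 30.9% at 20 h in each of the 4 genotypes.

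Lat-/- and WT cells were compared first at 0 h. There 0 members differed in expression and 0 in usage by edgeR, when 0.961% and 1.60% of all genes were called. In each of the 2 tests 1 Trav and 1 Trbv member had an unadjusted p under 0.05, and DESeq2 called 0. The summed Trav level was 156, 169, and 164 CPM in WT libraries and 147, 165, and 137 CPM in Lat-/- libraries, and the summed Trbv level 905, 1135, and 985 CPM and 987, 1104, and 1024 CPM. These libraries overlapped, with differences of −0.13 (exact permutation p = 0.3) and 0.05 (p = 0.7, exact) on the log2 scale. Other genes did differ at 0 h. Dntt averaged 110 CPM in Lat-/- and 32.4 CPM in WT cells, a difference of 1.76 (SE 0.16, adjusted p = 1.1e-24, edgeR), and Foxp3, the marker of regulatory T cells, 21.3 and 55.8 CPM, a difference of −1.39 (SE 0.18, adjusted p = 3e-12). The part of such differences in the results was not tested.

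In Lat-/- cells the summed Trav level was 139, 151, and 145 CPM at 4 h and 109, 115, and 114 CPM at 20 h, changes of −0.04 (exact permutation p = 0.8) and −0.41 (p = 0.1, exact, with no overlap). The summed Trbv level was 850, 936, and 941 CPM at 4 h and 915, 1021, and 915 CPM at 20 h, changes of −0.19 (p = 0.1, exact, with no overlap) and −0.13 (p = 0.2, exact). In expression 1 member was called at 4 h, Trav6-5, and 2 at 20 h, when 6.70% and 4.21% of all genes were called. The latter, named because they were few, were Trav15-1-dv6-1, which fell by 1.78 (SE 0.44, adjusted p = 0.00106, edgeR), and Trav1, which fell by 1.61 (SE 0.51, adjusted p = 0.0189).

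Against WT cells at the same time, Lat-/- cells had less Trav RNA at 4 h and more of both chains at 20 h. The summed Trav level differed by −0.79 at 4 h and 0.75 at 20 h on the log2 scale, each with no overlap (exact permutation p = 0.1). The summed Trbv level differed by 0.31 at 4 h (p = 0.2, exact) and by 1.08 at 20 h, where no library overlapped (p = 0.1, exact). At 4 h 16 Trav members were lower and 0 Trbv members passed the threshold, when 6.23% of all genes were lower. Some Trbv members, named after their values were seen, were higher at an adjusted p under 0.05 but below the fold threshold. Among these were Trbv19 with 0.86 (SE 0.16, adjusted p = 8.33e-07, edgeR), Trbv20 with 0.67 (SE 0.17, adjusted p = 0.000479), and Trbv16 with 0.67 (SE 0.15, adjusted p = 9.75e-05). The lowest Trbv difference, of Trbv23, was −0.43 (SE 0.31, adjusted p = 0.396). Trav5-1 differed by −1.33 (SE 0.37, adjusted p = 0.00177, edgeR), Trav14-3 by −1.19 (SE 0.30, adjusted p = 0.000562), and Trav13-2 by −1.15 (SE 0.37, adjusted p = 0.00981). When replicate 1, 2, or 3 was left out of every group, 8, 13, and 15 members were called, with none of these 3 among them each time, and with library totals alone 9 were. At 20 h 15 Trav and 15 Trbv members were higher, when 12.1% of all genes were higher. Among those with a mean of at least 50 counts the largest differences were of Trbv16 with 1.67 (SE 0.16, adjusted p = 4.72e-25), Trbv15 with 1.65 (SE 0.16, adjusted p = 1.66e-24), and Trbv17 with 1.61 (SE 0.20, adjusted p = 5.45e-15).

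The difference between the 2 genotypes' responses was tested as an interaction. At 4 h it passed the threshold for 2 members, when 8.71% of all genes passed it. These were Trav14-3, with −1.18 (SE 0.42, adjusted p = 0.0393, edgeR), which lost its call with library totals alone, and Trav6-5, which had at most 18 reads in a library. Without replicate 1, 2, or 3 of every group 0, 0, and 3 members passed. At 20 h it was higher in Lat-/- cells for 10 Trav and 9 Trbv members, when it was higher for 10.1% of all genes, with medians of 0.84 over Trav and 0.98 over Trbv members. Among those with a mean of at least 50 counts Trbv17, Trbv15, and Trbv12-1 had the largest, with 1.64 (SE 0.27, adjusted p = 2.46e-08), 1.63 (SE 0.22, adjusted p = 1.57e-12), and 1.62 (SE 0.28, adjusted p = 8.35e-08). When replicate 1, 2, or 3 was left out of every group, 14, 19, and 18 members passed at 20 h.

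Most members called for usage between Lat-/- and WT cells were Trbv genes. Trav members carried fewer reads, and some larger differences in them did not pass. At 20 h these included Trav1 with −1.18 (SE 0.54, adjusted p = 0.0774, edgeR) and Trav6d-5 with 1.17 (SE 0.54, adjusted p = 0.07775, edgeR). At 4 h 6 members differed, Trav6-5 among them, when 23.8% of all genes were called. Trbv2 (Vβ4) took 6.65, 6.38, and 6.04% in WT and 4.08, 3.88, and 4.57% in Lat-/- libraries, and Trbv19 4.00, 4.37, and 4.79% in WT and 6.40, 6.32, and 6.86% in Lat-/- libraries. The 2 genotypes did not overlap in either gene, and the differences were −0.60 (SE 0.16, adjusted p = 0.00115, edgeR) and 0.57 (SE 0.16, adjusted p = 0.0019). Trbv29 differed by −0.54 (SE 0.18, adjusted p = 0.0158) and Trbv3 by −0.43 (SE 0.15, adjusted p = 0.0243). Trav21-dv12 was higher by 0.88 (SE 0.33, adjusted p = 0.0369), a call lost with DESeq2 and with the filter of edgeR on low counts. Without replicate 1, 2, or 3 of every group 0, 2, and 5 members were called at 4 h, and no member was called in all 3 fits.

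At 20 h 7 members differed, when 35.1% of all genes were called. Trbv16 took 7.05, 6.16, and 6.06% in WT and 9.90, 9.45, and 9.66% in Lat-/- libraries, and Trbv15 6.66, 6.27, and 6.29% in WT and 9.18, 9.91, and 9.36% in Lat-/- libraries. Both were higher in each Lat-/- library than in any WT library, by 0.59 (SE 0.15, adjusted p = 0.000547, edgeR) and 0.57 (SE 0.15, adjusted p = 0.000972). Trbv17 was higher by 0.53 (SE 0.20, adjusted p = 0.0222) and Trbv20 by 0.47 (SE 0.17, adjusted p = 0.0189). Trbv3 and Trbv2 differed by −0.50 (SE 0.15, adjusted p = 0.00392) and −0.50 (SE 0.16, adjusted p = 0.0065) and Trbv13-1 by −0.38 (SE 0.16, adjusted p = 0.0446). When replicate 1, 2, or 3 was left out of every group, 5, 8, and 6 members were called, with Trbv15 and Trbv16 among them each time. The summed share of Trbv15, Trbv16, and Trbv17 in Lat-/- cells was 22.0% at 0 h, 21.6% at 4 h, and 21.3% at 20 h, and that of Trbv1, Trbv2, and Trbv3 23.1, 19.5, and 21.4%.

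**Figure D4:**
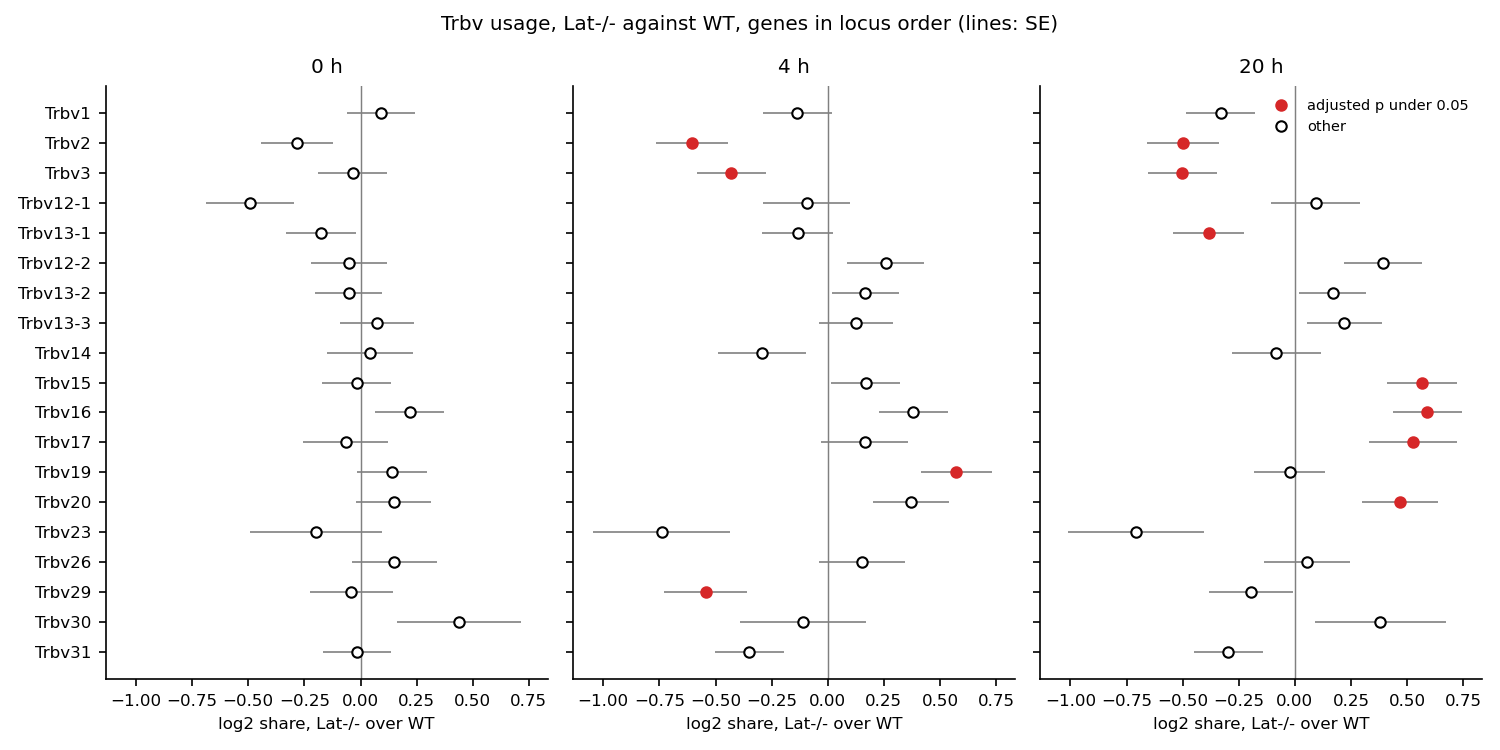
Log2 difference in share between Lat-/- and WT cells at 0, 4, and 20 h for the 19 Trbv members with 1000 or more reads in the LAT experiment, in the order of the locus. Points are edgeR estimates, bars their standard errors (n = 3 per group), and red points passed an adjusted p under 0.05. No gene passes at 0 h, and Trbv15 and Trbv16 stand at 0.57 and 0.59 at 20 h.

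Within Lat-/- cells 4 members changed share at 4 h and 2 at 20 h, when 15.4% and 10.7% of all genes were called. Trbv14 fell by 0.75 (SE 0.20, adjusted p = 0.0015, edgeR) and Trav14-1 by 0.64 (SE 0.24, adjusted p = 0.044) at 4 h, and Trbv12-1 rose by 0.54 (SE 0.20, adjusted p = 0.0412). Trav15-1-dv6-1 fell by 1.38 (SE 0.44, adjusted p = 0.0193) at 20 h, from 1.68, 1.44, and 2.02% to 0.744, 0.744, and 0.481%. Without replicate 1, 2, or 3 of every group 2, 3, and 2 members were called at 4 h, with Trbv14 among them each time, and 0, 1, and 0 at 20 h. Trav6-5 was the remaining call at both times. It had 5, 15, and 8 reads in WT libraries at 0 h, 4, 13, and 3 at 4 h, and 2, 2, and 0 at 20 h. Lat-/- libraries had 1, 2, and 2, then 9, 18, and 10, then 5, 14, and 10, so that the low 0 h reads of Lat-/- cells enter both calls, and only 35.8% of its windows are unique. The difference in usage response, a test added after the values were seen, passed for Trav6-5 at 4 h and for Trav6-5 and Trbv15 at 20 h, when 15.0% and 26.2% of all genes were called. For Trbv15 it was 0.58 (SE 0.22, adjusted p = 0.0291, edgeR), and it did not pass without replicate 1, 2, or 3 of every group, with adjusted p of 0.165, 0.083, and 0.0703.

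Of the other genes of the receptor, Cd247 and Cd3d were higher in Lat-/- cells at 20 h. Cd247 averaged 178 CPM in WT and 881 CPM in Lat-/- cells, and Cd3d 547 and 1203 CPM, with differences of 2.31 (SE 0.15, adjusted p = 1.3e-49, edgeR) and 1.14 (SE 0.15, adjusted p = 8.8e-14). Cd3e and Cd3g differed there by 1.00 (SE 0.15, adjusted p = 1.4e-10) and 0.815 (SE 0.15, adjusted p = 1.6e-07), not past the fold threshold. Trac averaged 2389 and 1310 CPM at 4 h and 667 and 947 CPM at 20 h, differences of −0.87 (SE 0.15, adjusted p = 3.3e-08) and 0.51 (SE 0.14, adjusted p = 0.0018), both under the fold threshold. Of 59 Traj genes 9 were lower at 4 h, beside 6.23% of all genes, and 10 higher at 20 h, beside 12.1%, and of 14 Trbj genes 0 and 3. Reads of Trbv members per read of Trbc1 and Trbc2 were 0.60, 0.59, and 0.62 in Lat-/- cells at 0, 4, and 20 h.

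Loss of CD5 or CD6 went with few differences in usage that passed the test. Few genes of any kind were called in these comparisons, so a call needed a smaller unadjusted p than in the tests of stimulation. A low number of calls here therefore does not show that usage was alike. The 3 knockouts share the WT libraries. In Cd5-/- cells 0 members were called by edgeR and by DESeq2 at 0, 4, and 20 h, when 0.0588%, 0.0836%, and 0.0217% of all genes were called. In Cd6-/- cells 0 were called by either tool, when 0%, 0.00310%, and 0.0186% of all genes were. At an unadjusted p under 0.05 the Cd5-/- comparisons held 3, 2, and 9 Trav and 0 Trbv members at the 3 times, and the Cd6-/- comparisons 2, 0, and 1 Trav and 0, 0, and 2 Trbv members. The 0 h counts at an unadjusted p include library 2 of both sets. Counts of called members at 0 h stayed at 0 when library 2 of each of these sets at 0 h was left out.

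In Cd5-/-Cd6-/- cells 0, 1, and 1 members were called at 0, 4, and 20 h, when 0.0279%, 0.0403%, and 0.0465% of all genes were. DESeq2 called 3, 6, and 2 members. An unadjusted p under 0.05 was reached by 10, 11, and 9 Trav and 1, 3, and 1 Trbv members. The call at both times was Trav14d-3-dv8, a copy in the duplicated part of the α locus. Its share was 4.24, 4.92, and 5.00% in WT libraries at 0 h and 1.99, 2.63, and 2.30% in Cd5-/-Cd6-/- libraries. At 4 h it was 4.80, 4.57, and 4.96% against 2.34, 1.82, and 1.88%, and at 20 h 3.70, 4.66, and 4.98% against 2.44, 1.86, and 1.39%. The genotypes did not overlap at any time, and the differences were −1.03 (SE 0.24, adjusted p = 0.105, edgeR), −1.25 (SE 0.24, adjusted p = 0.00482), and −1.22 (SE 0.26, adjusted p = 0.0314). The call was lost at 4 h without replicate 2 of every group, and at 20 h without replicate 2 or 3 and when only the compared groups were fitted. In Cd5-/- cells the differences were −0.21, −0.38, and −0.23, and in Cd6-/- cells 0.00, 0.08, and 0.00, none past the test. Without library 2 of both sets the 0 h differences were −0.46 and 0.15, neither past the test. At 0 h the mean share was 4.11% in the set labelled Cd5-/- and 3.44% without its library 2, and 4.73% and 5.23% in the set labelled Cd6-/-. Of its windows 61.2% are unique.

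Other copies of the duplicated part, named after their values were seen, had the same direction in Cd5-/-Cd6-/- cells without passing the test. Trav7n-4 took 1.10, 1.16, and 1.55% in WT and 0.374, 0.389, and 0.509% in Cd5-/-Cd6-/- libraries at 0 h. Differences at 0, 4, and 20 h were −1.57, −1.25, and −1.30 for Trav7n-4, −1.59, −1.37, and −1.67 for Trav6n-6, −1.68, −1.70, and −1.83 for Trav10n, and −1.32, −1.33, and −1.34 for Trav8d-2. Adjusted p ran from 0.150 to 1 over these 12 values (edgeR). Their mean shares in Cd5-/-Cd6-/- cells were 0.170 to 0.657%, with unique windows of 36.4 to 76.9%.

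Over all 25 duplicated copies among the members, the share was 22.2, 23.8, and 23.0% in WT cells at 0, 4, and 20 h. In Cd5-/-Cd6-/- cells it was 17.0, 16.6, and 16.9% in the 0 h libraries, 19.2, 17.0, and 18.1% at 4 h, and 18.6, 18.3, and 17.1% at 20 h. In Cd5-/- cells it averaged 20.0, 20.6, and 19.0% and in Cd6-/- cells 21.2, 23.6, and 22.5%. At 0 h without library 2 the latter 2 sets had 19.1 and 22.8%. The 5 copies named above, 4 of them after their values were seen, summed to 8.64, 9.70, and 8.86% in WT and 3.64, 3.91, and 3.45% in Cd5-/-Cd6-/- cells, whereas the other 20 copies summed to 13.6, 14.1, and 14.1% and to 13.2, 14.2, and 14.6%. Of these 20, 13, 10, and 10 had a lower mean in Cd5-/-Cd6-/- cells at 0, 4, and 20 h. The 24 Trav members nearest the joining genes took 39.2, 38.8, and 39.6% in WT libraries at 0 h and 45.7, 45.6, and 46.9% in Cd5-/-Cd6-/- libraries, with means of 40.1 and 47.2% at 4 h and 40.3 and 48.1% at 20 h. In libraries 1, 2, and 3 labelled Cd5-/- this share was 43.7, 40.3, and 45.2% at 0 h, and the means at 4 h and 20 h were 46.5 and 46.7%. In libraries 1, 2, and 3 labelled Cd6-/- it was 37.6, 46.9, and 42.8% at 0 h, with means of 41.6 and 41.2% later. Library 2 was the lowest of the 0 h libraries labelled Cd5-/- and the highest of those labelled Cd6-/-. Without library 2 the 0 h means were 44.5 and 40.2%. This stretch of the locus was set by position after earlier results were known, and its share is given with no test.

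**Figure D5:**
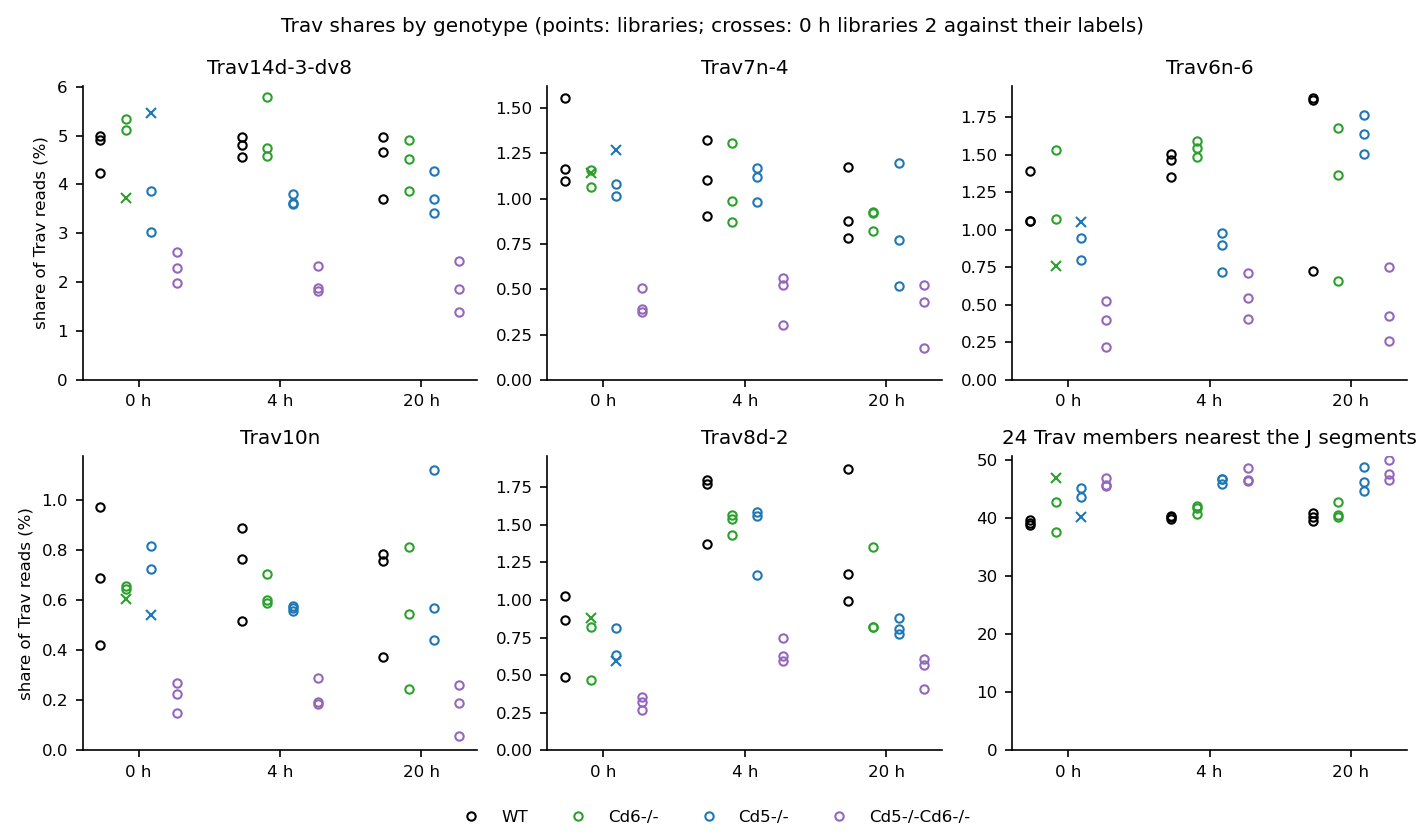
Share of 5 duplicated Trav copies and of the 24 Trav members nearest the joining genes (percent of Trav reads) by genotype and time in the CD5/CD6 experiment. Points are libraries, and crosses are the 0 h libraries 2 of the sets labelled Cd5-/- and Cd6-/-, and no error bars are drawn. Trav14d-3-dv8 averages 4.72% in WT and 2.31% in Cd5-/-Cd6-/- cells at 0 h, and the J-proximal share 39.2% and 46.1%.

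Counting members whose libraries did not overlap between a knockout and WT at all 3 times, 2 were higher and 4 lower in Cd5-/-Cd6-/- cells, when 0.0891% and 0.0576% of the 19089 genes with 50 or more reads were so by CPM. The higher ones were Trav15-2-dv6-2 and Trav21-dv12 and the lower ones Trav8d-2, Trav14d-3-dv8, Trav7n-4, and Trav10n. For Cd5-/- cells without the 0 h library 2, Trav16 and Trav21-dv12 were higher and 0 members lower, when 0.141% and 0.0995% of genes were. For Cd6-/- cells without the 0 h library 2, 0 were higher and Trbv12-1 and Trbv15 lower, when 0.0314% and 0.0210% of genes were. This count was made after the values were seen.

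Trav21-dv12, which the δ chain can also use and which has 100% unique windows, had a mean share of 2.46, 1.42, and 1.99% in WT cells at 0, 4, and 20 h, 4.14, 2.39, and 3.16% in Cd5-/-Cd6-/- cells, and 3.66, 2.08, and 3.39% in Cd5-/- cells. Differences from WT cells were 0.75, 0.74, and 0.66 in the double knockout and 0.58, 0.54, and 0.77 in Cd5-/- cells, with an adjusted p of 1 for each (edgeR). Without library 2 of the sets labelled Cd5-/- and Cd6-/- the 0 h difference in Cd5-/- cells was 0.75 (SE 0.30, adjusted p = 0.593, edgeR). The 0 h library 2 labelled Cd5-/- was at 2.70% and the others at 3.91 and 4.36%, and of those labelled Cd6-/- library 2 was at 4.40% and the others at 2.36 and 3.06%. Summed markers of γδ T cells were also higher than in WT libraries, without overlap, in Cd5-/-Cd6-/- libraries at 0 and 20 h and in Cd5-/- libraries at 20 h. The summed RNA of the 5 of 8 listed markers in the table was 35.6 to 38.2 CPM in WT libraries at 0 h, 83.0 to 126.2 CPM in Cd5-/-Cd6-/- libraries, and 37.8 to 101.7 CPM in those labelled Cd5-/-, and at 20 h 5.20 to 7.53, 13.6 to 20.7, and 12.9 to 14.4 CPM. At 0 h the range of the libraries labelled Cd5-/- includes library 2 and overlaps that of WT libraries. Sums at 4 h and in Cd6-/- cells are not given here. None of the 5 markers was at 0 in all libraries of a group. Trdc, the δ constant gene, averaged 24.5 CPM in WT and 66.7 CPM in Cd5-/-Cd6-/- cells at 0 h. The part of these cells in the share of Trav21-dv12 was not tested.

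Differences in the evenness of usage between genotypes were small against the means. The effective number of Trav genes differed from that of WT cells by −1.94 in Cd5-/-Cd6-/- cells at 0 h and −1.47 at 4 h, and by −1.97 in cells labelled Cd6-/- at 0 h, in each case with no overlap (exact permutation p = 0.1). With a replicate of every group left out, these 3 values ranged from −2.33 to −1.68, from −2.13 to −0.80, and from −2.66 to −1.18. That of Trbv genes was higher by 0.43 at 4 h and 0.30 at 20 h in the double knockout, by 0.32 in Cd5-/- cells at 4 h, and by 0.32 in Lat-/- cells at 20 h, again with no overlap (exact permutation p = 0.1), though with shares per base of exon the last of these was 0.015. Without the 0 h library 2 the difference in cells labelled Cd6-/- was −2.18. The 17 other comparisons gave an exact permutation p of 0.2 to 1, and over the 24 tests the lowest adjusted p was 0.343 (permutation, Benjamini-Hochberg).

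Libraries resembled each other most within a group. The distance between 2 libraries was taken as the percentage of reads that would have to change gene for the shares to match (Bray-Curtis), averaged over the 2 chains. In the CD5/CD6 experiment its median was 7.18% within a genotype and time, 8.50% between genotypes at 1 time with different replicate numbers, and 10.9% between times within a genotype with different numbers. In the LAT experiment these medians were 8.04, 11.4, and 10.0%. The 0 h library 2 labelled Cd5-/- lay at a mean of 13.3% from stimulated Cd5-/- libraries and 12.7% from stimulated Cd6-/- libraries, and that labelled Cd6-/- at 12.5% from Cd6-/- and 11.6% from Cd5-/- libraries. The other 4 libraries at 0 h of these sets were nearest to the stimulated libraries of their own label among the 4 genotypes.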

How the data were processed

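RNA was sequenced from naive CD4+ T cells in 54 samples, grouped by the genotype, treatment, and replicate number in their labels. The authors made stranded poly(A) libraries, ran them as single 50-base reads, removed adapter dimers with DimerRemover, aligned with STAR to GRCm38, and summarized the alignments by gene with featureCounts. What they deposited is 1 table of raw counts per experiment, neither normalized nor pooled, and 0 per-sample columns were left unused. Annotation release, strand setting, and the treatment of multimapping reads are not given in the sources used here, so reads of near-identical variable genes may have been dropped or assigned in more than 1 way. Overlapping genes share this uncertainty.

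Each table was fitted on its own with edgeR 4.0.16 (R 4.3.3) on genes with at least 1 read, 32290 and 27780 genes, with TMM factors, 1 mean per group, and Benjamini-Hochberg adjustment over all genes tested. In the usage fit the offset of a member row was the log of the member total of its locus. Standard errors were derived from the fold change and the F statistic. Single values were compared with exact 2-sided permutation tests (scipy 1.17.1). Alternatives were DESeq2 1.42.0, RLE factors, library totals, filterByExpr, a replicate block, leaving out each replicate, and fits of the compared groups alone. The functions of the edgeR fits and calls were tested on simulated counts with known changes. Identifiers were matched to the GENCODE annotation of GRCm38 (55144 of 55385), which also gave sequences, lengths, and 50-base windows.

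Members and lists were chosen with earlier results of these data known. Named genes were the 5 most used per locus in untreated WT cells (CD5/CD6 experiment), 3 most used per base, up to 3 per direction among those called in a comparison with a mean of 50 counts, groups (genes named dv, duplicated copies), Trav1, Trav11, Trav11d, Trbv1, and Trbv31, and other receptor genes. Genes named outside this rule are said to be so.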

Additional observations from a re-analysis of the deposited data

Results flagged for a closer look

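Responses to stimulation that differed between Lat-/- and WT cells were found for 2 members in expression at 4 h and 19 at 20 h, and for 1 and 2 members in usage, each by an interaction term in edgeR's quasi-likelihood test. In usage these were Trav6-5, with a log2 difference of 3.97 at 4 h (SE 1.18, adjusted p = 0.00677, edgeR) and 4.15 at 20 h (SE 1.31, adjusted p = 0.00778), and Trbv15, with 0.58 at 20 h (SE 0.22, adjusted p = 0.0291). The values of Trav6-5 rest on a prior count and bound nothing, since it had at most 18 reads in a library and 1, 2, and 2 reads in the untreated Lat-/- libraries, and its share of unique windows was 35.8%.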

How the results depend on the processing

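Of 241 counts of called members recomputed under alternatives, 179 stayed within 1.5 times the reported count, and of 219 summed levels, effective numbers, and distances 207 moved by less than the spread between replicates. No called result changed its direction. DESeq2 called more members in usage, 18 and 24 for WT cells at 4 h and 20 h in the CD5/CD6 experiment, 12 and 12 in the LAT experiment, 7 and 5 for Lat-/- cells, 13 for Lat-/- against WT at 20 h, 5 and 9 for the differences of these responses, 3, 6, and 2 for Cd5-/-Cd6-/- cells at 0, 4, and 20 h, and in expression 4 for the difference at 4 h. The filter of edgeR on low counts, which tests fewer genes, gave in usage 17 and 27, 12 and 12, 16 for Lat-/- against WT at 20 h, 4 and 8 for the differences, and 2 and 2 for Cd5-/-Cd6-/- cells at 0 h and 4 h, and in expression 4 for Lat-/- cells at 20 h and 5 for the difference at 4 h. Library totals without TMM factors gave in expression 14 and 7 calls for WT cells at 4 h, 2 for Lat-/- cells at 4 h, 9 for Lat-/- against WT at 4 h, and 1 for the difference at 4 h, and log2 changes of summed levels of 0.19 and −1.42 for Trav and −0.99 for Trbv (4 h) in the CD5/CD6 experiment, 0.38 for Trav and −0.69 for Trbv at 4 h in the LAT experiment, and 0.69 for Trav in Lat-/- against WT at 20 h. RLE factors gave −1.23 for Trav in WT cells at 20 h and 0.70 for Trav in Lat-/- against WT at 20 h. With the compared groups alone 9 members changed share in WT cells at 20 h, 11 differed between Lat-/- and WT at 20 h, and 0 in Cd5-/-Cd6-/- cells at 20 h. Per base of exon the effective number of Trbv genes differed by −0.44 at 4 h and 0.015 at 20 h between Lat-/- and WT. Apart from these constructions, the cause was not tested.

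When each replicate was left out in turn, usage calls ranged from 2 to 8 and 4 to 14 for WT cells at 4 h and 20 h in the CD5/CD6 experiment, 2 to 4 and 1 to 6 in the LAT experiment, 2 to 3 and 0 to 1 for Lat-/- cells, 0 to 5 and 5 to 8 for Lat-/- against WT at 4 h and 20 h, and 0 to 1 for each difference and each time in Cd5-/-Cd6-/- cells. Expression calls ranged from 8 to 14 for WT cells at 4 h in the LAT experiment, 1 to 2 for Lat-/- cells at each time, 8 to 15 for Lat-/- against WT at 4 h, and 0 to 3 for the difference at 4 h. Some differences that had passed no test took either sign, with ranges of −1.62 to 0.22 and −2.09 to 0.88 for the effective number of Trav genes in Cd6-/- cells at 4 h and 20 h, −0.31 to 0.56 and −0.43 to 2.03 in Lat-/- cells at 4 h and 20 h, −0.058 to 0.11 for Trbv genes in Cd5-/- cells and −0.18 to 0.024 in Lat-/- cells at 0 h, and −0.11 to 0.00023 for the summed Trav level of Lat-/- cells at 4 h against 0 h. So did the effective number of Trbv genes in Cd6-/- cells at 20 h, with −0.097 to 0.066, and that in Lat-/- cells at 20 h differed by 0.20 to 0.39 in Lat-/- cells at 20 h. Of 78 calls of named genes 40, 31, and 18 were lost without replicate 1, 2, and 3.

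Samples with the same replicate number were not taken as paired, since correlations of their deviations from group means were as low as −0.113 and −0.217. Their mean was nevertheless 0.229 in the CD5/CD6 experiment and 0.0705 in the LAT experiment, against −0.113 and −0.0344 between different numbers. In addition, 35 of 36 and 17 of 18 libraries correlated best with their own number. Libraries of the same number thus shared deviations, a finding from the data and not from the design. The main fits and the permutation tests took no account of it. With a replicate block 11 members changed share in WT cells at 4 h in the CD5/CD6 experiment and 2 differed in Cd5-/-Cd6-/- cells at 0 h and 2 at 4 h, and no named gene lost its call. Depth limits the least read genes, such as Trav20 with at most 11 reads in a WT library.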
